A study of Mus musculus with 163 samples.

Results

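The 37 genes of the mouse mitochondrial genome were described in single cochlear hair cells that lacked Rbm24 and in control hair cells. Members were all genes of the deposited table whose symbol starts with mt-, which gave 37 of 55291 genes: 13 for proteins, 2 for ribosomal RNAs (rRNAs) and 22 for transfer RNAs (tRNAs). Of the 37, 36 had at least 1 count, as did 30530 genes of the table. Inner and outer hair cells (IHC and OHC) were picked by hand at postnatal day 7 from mice whose hair cells carry the red fluorescent protein Tdtomato. The mutant groups, 56 Exp OHC and 26 Exp IHC, carried the labelled alleles Atoh1P2A-Cre and Atoh1P2A-Tdtomato on a Rbm24flox/flox background, so that Cre, driven by the hair cell gene Atoh1, removes Rbm24, which encodes an RNA-binding protein that regulates splicing. The control groups, 43 Ctrl OHC and 38 Ctrl IHC, were labelled Atoh1P2A-Tdtomato/+, and were therefore without Cre and with 1 unmodified Atoh1 allele. All 4 groups share the Tdtomato allele, the hand picking and a full-length Smart-Seq library of polyA RNA per cell. No label names the animal of a cell, so each group is 1 sample and no test between groups was possible. The spread over cells is given as a description, and 95% intervals on sums cover counting error only.

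Mitochondria keep a small circular genome that is transcribed from both strands into long precursors, which are cut at the tRNAs into rRNAs, tRNAs and messengers. The messengers encode core subunits of respiratory chain complexes I, III and IV and of the ATP synthase, complex V, while all other subunits and all the enzymes of mitochondrial transcription and translation come from nuclear genes. Hair cells depend on mitochondrial ATP and calcium buffering, and mutations in mitochondrial rRNA and tRNA genes are known causes of deafness in humans.

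Depth per cell ranged over 8342675 to 17030160 counts in Exp OHC, 5467115 to 14442153 in Ctrl OHC, 9976798 to 18072166 in Exp IHC and 6127591 to 13681861 in Ctrl IHC. Rbm24 had 0.212 counts per 1000000 counts of the group (CPM) in Exp OHC and 315 CPM in Ctrl OHC, and 1.51 CPM in Exp IHC and 431 CPM in Ctrl IHC, and no mutant cell reached the lowest control cell. The 8 hair cell markers summed to 7189 CPM in Exp OHC and 5599 CPM in Ctrl OHC, and to 8133 CPM in Exp IHC and 6854 CPM in Ctrl IHC. The 7 OHC markers summed to 323 CPM in Exp OHC, against 6759 CPM in Ctrl OHC, and to 219 CPM in Exp IHC and 466 CPM in Ctrl IHC. Without Sri, the 6 others had 168 CPM in Exp OHC and 5624 CPM in Ctrl OHC, and 5.14 CPM in Exp IHC and 42.3 CPM in Ctrl IHC, so they were higher in Exp OHC than in Exp IHC but far below Ctrl OHC. The 7 IHC markers summed to 1041 CPM in Exp OHC and 3031 CPM in Ctrl OHC, and to 2359 CPM in Exp IHC and 6621 CPM in Ctrl IHC. Most of each sum was Calb2. Without Calb2, the 6 others had 75.2 CPM in Exp OHC and 95.7 CPM in Ctrl OHC, and 587 CPM in Exp IHC and 1264 CPM in Ctrl IHC. Within each group the cells also fell into a set with little of the annotated RNA Gm15772 (22.1 CPM or less, 71 cells in all) and a set with more of it (61.4 CPM or more, 92 cells). The low set was 16 of 56 Exp OHC, 25 of 43 Ctrl OHC, 7 of 26 Exp IHC and 23 of 38 Ctrl IHC. All 71 low cells carried Y-linked transcripts without Xist, whereas the high set held mostly cells with Xist. The sets are mixed differently in mutants and controls, and many values below differ in direction between sets, so ratios within sets are given for the mitochondrial genes described in detail. The sets were chosen after their values had been seen.

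Of the mitochondrial genes, 11 lie wholly inside a stretch of the genome that has a near-identical copy in nuclear DNA, and 2 more, mt-Co1 and mt-Nd4, lie partly in it. The stretch covers chrM:6390-11042 (4653 bases, GRCm38, the same build as mm10), and its copy lies on the minus strand of chr1:24611535-24616197. It is annotated as 7 pseudogenes with 99.71% to 100% identity to their mitochondrial genes, so a read from most of this stretch cannot be assigned by its sequence. A 90-base window of mt-Co3 (chrM:8907-8996, plus strand) and the same window of its copy Gm28437 (chr1:24613582-24613671, minus strand) show the problem, since no base differs here or over the 783 bases compared:
mt-Co3: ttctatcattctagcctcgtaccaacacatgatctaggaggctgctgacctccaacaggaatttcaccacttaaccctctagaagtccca
Gm28437: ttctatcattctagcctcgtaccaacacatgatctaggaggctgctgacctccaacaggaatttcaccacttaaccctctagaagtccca
Outside the stretch, copies had diverged. A window of mt-Cytb (chrM:14445-14534, plus strand) and its copy Gm11410 (chr4:80004289-80004378, plus strand) differ at the 8 bases printed in capitals, and at 82 of 1143 bases compared in all:
mt-Cytb: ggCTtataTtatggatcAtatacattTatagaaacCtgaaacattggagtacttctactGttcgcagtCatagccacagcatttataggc
Gm11410: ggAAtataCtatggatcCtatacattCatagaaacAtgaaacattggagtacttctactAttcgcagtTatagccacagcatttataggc
Gm11410 had 0 counts in all 4 groups, while Gm28437 had 634 CPM in Exp OHC, 765 CPM in Ctrl OHC, 666 CPM in Exp IHC and 939 CPM in Ctrl IHC, more than mt-Co3 itself. A second source of shared reads is overlap within the mitochondrial genome, which is shown by the last 90 bases of mt-Atp8 (chrM:7880-7969, plus strand), with the 43 bases that also belong to mt-Atp6 in capitals:
mt-Atp8: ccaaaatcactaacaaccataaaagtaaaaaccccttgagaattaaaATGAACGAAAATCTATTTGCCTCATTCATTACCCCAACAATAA
The sources used here do not give how reads with several positions or several genes were counted, so the values of the genes inside the stretch are uncertain.

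Mitochondrially encoded genes took a smaller share of the counts in Rbm24 mutant hair cells of both types. The 37 genes held 4.44% of the summed counts in Exp OHC and 6.26% in Ctrl OHC, a log2 ratio of -0.50 or 1.41-fold less. In IHC they held 4.59% in Exp IHC and 7.87% in Ctrl IHC, a log2 ratio of -0.78 or 1.72-fold less. Per cell, the share ran from 1.58% to 7.88% with a median of 4.36% in Exp OHC, and from 2.97% to 11.2% with a median of 6.04% in Ctrl OHC. The cells overlapped, but 51 of 56 Exp OHC lay below the Ctrl OHC median. In Exp IHC the share ran from 1.78% to 7.77% with a median of 4.77%, and in Ctrl IHC from 4.62% to 14.1% with a median of 7.52%. Here 25 of 26 Exp IHC lay below the Ctrl IHC median and 12 lay below every Ctrl IHC. A share cannot tell fewer mitochondrial transcripts from more nuclear ones.

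**Figure D1:**
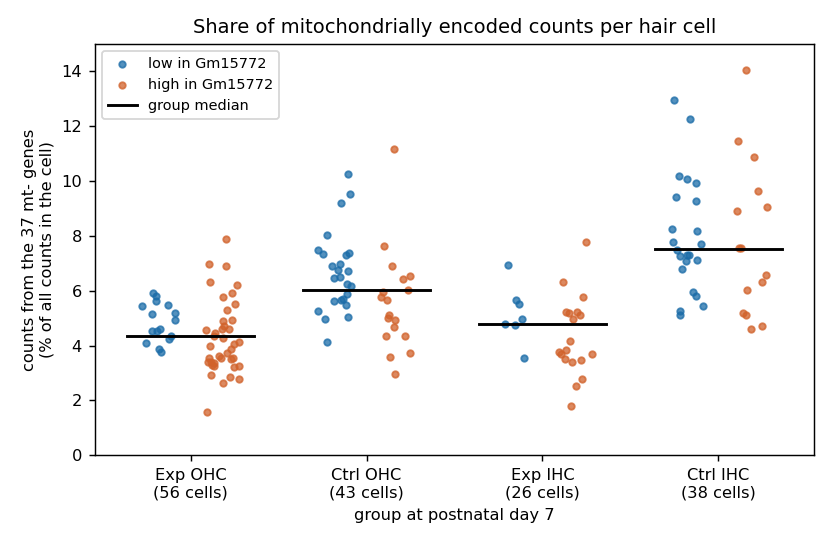
Share of all counts from the 37 mitochondrially encoded genes in each of 163 hair cells (vertical axis, %), by group (horizontal axis), with points coloured by Gm15772 set and a line at the group median. The medians are 4.36% in Exp OHC, 6.04% in Ctrl OHC, 4.77% in Exp IHC and 7.52% in Ctrl IHC, and the groups overlap.

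The lower share was also present within each Gm15772 set. Sets of the same name were not alike in mutants and controls, so ratios within a set do not compare matched cells. Of the counts of mt-Nd3 and its nuclear copy, mt-Nd3 had 84.2% in Exp OHC and 55.2% in Ctrl OHC in the low sets. In the high sets it had 57.6% in Exp OHC and 89.1% in Ctrl OHC. In the low sets all mitochondrial genes together held 4.85% of counts in Exp OHC and 6.69% in Ctrl OHC. In the high sets they held 4.25% in Exp OHC and 5.54% in Ctrl OHC. In IHC, the low sets held 5.10% in Exp IHC and 7.97% in Ctrl IHC, and the high sets 4.39% in Exp IHC and 7.69% in Ctrl IHC. The 24 genes wholly outside the copied stretch showed the same direction, with 3.19% in Exp OHC and 4.68% in Ctrl OHC, and 3.27% in Exp IHC and 5.83% in Ctrl IHC. The Spearman correlation of the share with depth across cells was -0.03 in Exp OHC, 0.15 in Ctrl OHC, 0.07 in Exp IHC and -0.20 in Ctrl IHC, and that with the number of genes detected was -0.04 in Exp OHC, -0.32 in Ctrl OHC, -0.39 in Exp IHC and -0.22 in Ctrl IHC. The correlation of the share with the sum of the hair cell markers was -0.09 in Exp OHC and -0.09 in Ctrl OHC. In IHC it was -0.55 in Exp IHC and -0.52 in Ctrl IHC. Mutant libraries were deeper. The 8 markers of supporting cells were lower in the mutants in sum, though not per cell in IHC. They summed to 10.3 CPM in Exp OHC and 30.4 CPM in Ctrl OHC, and to 15.3 CPM in Exp IHC and 114 CPM in Ctrl IHC. The median over cells was 0.146 CPM in Exp OHC and 0.325 CPM in Ctrl OHC. In IHC it was higher in the mutants, at 7.97 CPM in Exp IHC and 0.570 CPM in Ctrl IHC. Sox2 alone had 14.9 CPM in Exp IHC. Otog, Fabp7 and Gjb6 were at 0 in both mutant groups and Slc1a3 in Exp IHC. The sum reached 10 CPM in 12 of 56 Exp OHC and 12 of 43 Ctrl OHC, and in 12 of 26 Exp IHC and 16 of 38 Ctrl IHC, with highest cells at 132 CPM in Exp OHC and 387 CPM in Ctrl OHC, and at 72.2 CPM in Exp IHC and 1212 CPM in Ctrl IHC. The share was lower by 0.54 in Exp OHC and by 0.75 in Exp IHC on the log2 scale without the cells at 10 CPM or more for these markers, a check added after the data were seen. The immune list was carried by C1qb, with 267 CPM in Exp OHC and 109 CPM in Ctrl OHC, and 283 CPM in Exp IHC and 117 CPM in Ctrl IHC, and the other 4 immune genes together had at most 1.46 CPM in a group, with C1qa at 0 in 3 of the groups and Tyrobp in Ctrl IHC. The 5 neuron markers summed to 862 CPM in Exp OHC and 384 CPM in Ctrl OHC, and to 1432 CPM in Exp IHC and 735 CPM in Ctrl IHC. The part of these lists in the result was not tested.

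The messengers made up most of the mitochondrial counts. Protein genes held 86.5% of them in Exp OHC and 85.8% in Ctrl OHC, and 90.0% in Exp IHC and 87.4% in Ctrl IHC. The rRNAs held 13.4% in Exp OHC and 14.1% in Ctrl OHC, and 9.86% in Exp IHC and 12.4% in Ctrl IHC. The tRNAs held 0.119% in Exp OHC and 0.116% in Ctrl OHC, and 0.148% in Exp IHC and 0.161% in Ctrl IHC. The tRNA share differed in direction between sets, with 0.172% in Exp OHC and 0.112% in Ctrl OHC in the low sets but 0.0911% in Exp OHC and 0.124% in Ctrl OHC in the high sets. In IHC it was 0.216% in Exp IHC and 0.160% in Ctrl IHC in the low sets, and 0.118% in Exp IHC and 0.162% in Ctrl IHC in the high sets. The protein share was 86.5% in Exp OHC and 88.4% in Ctrl OHC in the low sets, and 86.5% in Exp OHC and 80.7% in Ctrl OHC in the high sets. By complex, complex I genes held 42.4% of the mitochondrial counts in Exp OHC and 43.7% in Ctrl OHC, and mt-Cytb, the complex III gene, held 26.0% in Exp OHC and 25.0% in Ctrl OHC. Complex IV genes held 17.7% in Exp OHC and 16.7% in Ctrl OHC, nearly all of it mt-Co1. The other complex IV genes, mt-Co2 and mt-Co3, lie inside the copied stretch, so their part is uncertain. The shares of complexes I, III and IV, too, went opposite ways in the sets of OHC. Complex I held 47.5% in Exp OHC and 43.1% in Ctrl OHC in the low sets, and 39.6% in Exp OHC and 44.8% in Ctrl OHC in the high sets. mt-Cytb held 22.8% in Exp OHC and 26.5% in Ctrl OHC in the low sets, and 27.7% in Exp OHC and 21.9% in Ctrl OHC in the high sets. Complex IV held 15.8% in Exp OHC and 18.1% in Ctrl OHC in the low sets, and 18.8% in Exp OHC and 13.9% in Ctrl OHC in the high sets.

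Levels per kilobase of gene differed more between genes than between groups. mt-Cytb and mt-Nd1 were the highest, at 10080 and 9129 CPM per kilobase in Exp OHC, 13667 and 13208 in Ctrl OHC, 11260 and 9636 in Exp IHC, and 17691 and 16327 in Ctrl IHC. The 6 protein genes inside the copied stretch had between 13.5 CPM per kilobase (mt-Nd4l in Exp IHC) and 505 CPM per kilobase (mt-Co3 in Ctrl IHC). Every protein gene not wholly inside it had at least 1060 CPM per kilobase in every group. mt-Co1 and mt-Co2, neighbours on the same precursor, had 6437 and 231 CPM per kilobase in Ctrl OHC. With the counts of its nuclear copy Gm28661 added, mt-Co2 had 337 CPM in Ctrl OHC, of which 46.8% were assigned to mt-Co2.

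**Figure D2:**
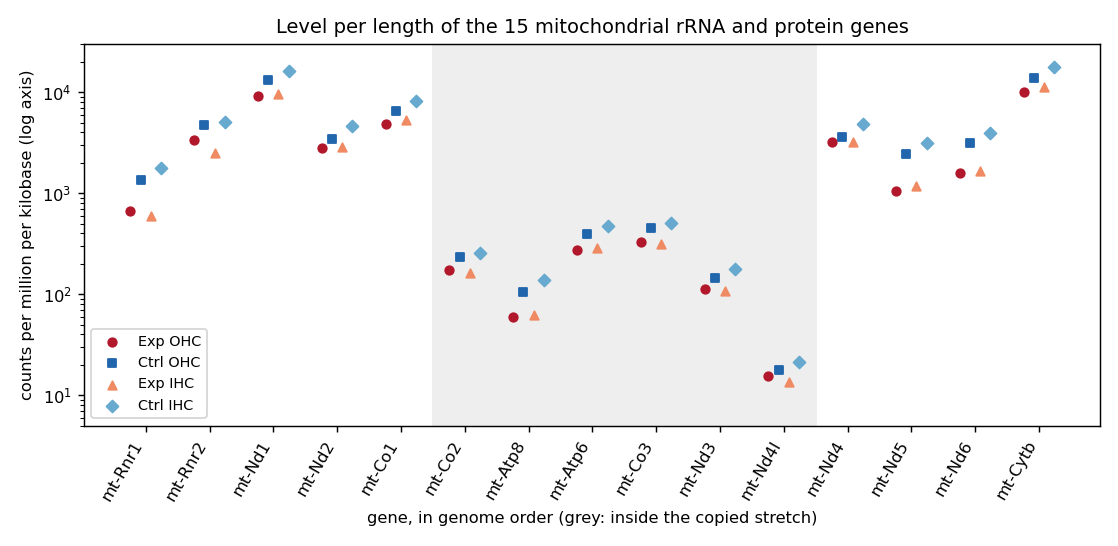
CPM per kilobase (vertical log axis) of the 15 mitochondrial rRNA and protein genes in genome order (horizontal axis), as 1 point per group. The 6 protein genes in the grey copied stretch lie at 505 CPM per kilobase or less, and all other protein genes at 1060 or more.

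All 13 protein genes were lower in Exp OHC than in Ctrl OHC, where 46.8% of 14588 genes at 1 CPM or more were lower. All 13 were also lower in Exp IHC than in Ctrl IHC, where 44.1% of 14557 genes were lower. These counts rest on all cells pooled. In OHC 9 of the 13 were lower in the low set, 8 in the high set and 6 in cells with Xist, and in IHC 11 in the low set, 8 in the high set and 8 in cells with Xist. The share of all genes lower was not counted within these subsets, so these subset counts have no background beside them. Their median log2 ratio was -0.44 in OHC and -0.70 in IHC, against 0.06 in OHC and 0.11 in IHC for all genes tested. More than 1.5-fold lower were 3 of the 13 in OHC (21.5% of all genes) and all 13 in IHC (19.5% of all genes). The genes share libraries and, except for mt-Nd6 on the other strand, a precursor, so they are not independent of each other. Counting error is small beside these ratios, with intervals of the log2 ratio from -0.29 to -0.13 for mt-Nd4l in OHC, the protein gene with the fewest counts.

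With all cells pooled, the largest ratio among protein genes was that of mt-Nd5, which encodes a proton-pumping subunit of complex I. It was not the largest in the low sets, where mt-Co2, mt-Atp8, mt-Atp6 and mt-Co3 were lower by more, up to -1.48 in OHC and -1.70 in IHC for mt-Co3, against -1.06 in OHC and -1.10 in IHC for mt-Nd5. In the high sets mt-Nd5 was at -1.27 in OHC and -1.70 in IHC. mt-Nd5 (chrM:11742-13565, plus strand) had 1934 CPM in Exp OHC and 4443 CPM in Ctrl OHC, with cells from 728 to 3456 CPM (median 1771) in Exp OHC and from 2222 to 8046 CPM (median 4468) in Ctrl OHC. It was therefore 2.30-fold lower (log2 ratio -1.20), and all 56 Exp OHC lay below the Ctrl OHC median. mt-Nd5 had 2157 CPM in Exp IHC and 5740 CPM in Ctrl IHC, with cells from 1014 to 3750 CPM (median 2059) in Exp IHC and from 2459 to 11837 CPM (median 5631) in Ctrl IHC. This was 2.66-fold lower (log2 ratio -1.41), and 33 of 38 Ctrl IHC lay above every Exp IHC. Within mitochondrial counts, mt-Nd5 took 4.36% in Exp OHC and 7.10% in Ctrl OHC, and 4.70% in Exp IHC and 7.29% in Ctrl IHC, so it was lower also relative to the other mitochondrial genes.

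Its neighbour mt-Nd6, another membrane subunit of complex I and the only protein gene on the minus strand, followed closely. mt-Nd6 (chrM:13552-14070) had 826 CPM in Exp OHC and 1641 CPM in Ctrl OHC, and 866 CPM in Exp IHC and 2035 CPM in Ctrl IHC. The log2 ratios were -0.99 in OHC and -1.23 in IHC, and 55 of 56 Exp OHC and all 26 Exp IHC lay below the median of their controls. mt-Nd6 and mt-Nd5 overlap by 14 bases on opposite strands. The strand setting of the counting is not given, so reads from plus-strand RNA across mt-Nd6 cannot be told apart from its own.

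The other complex I genes differed less. mt-Nd1 had 8737 CPM in Exp OHC and 12640 CPM in Ctrl OHC (log2 ratio -0.53), and 9222 CPM in Exp IHC and 15625 CPM in Ctrl IHC (-0.76). mt-Nd2 had 2879 CPM in Exp OHC and 3560 CPM in Ctrl OHC (-0.31), and 2946 CPM in Exp IHC and 4796 CPM in Ctrl IHC (-0.70). mt-Nd4, which lies partly in the stretch, had 4375 CPM in Exp OHC and 4976 CPM in Ctrl OHC (-0.19). Its ratio was 0.16 in the low set and -0.34 in the high set of OHC. In IHC, mt-Nd4 had 4393 CPM in Exp IHC and 6601 CPM in Ctrl IHC (-0.59), and it was lower in both sets. mt-Nd1 was lower in both sets, whereas the ratio of mt-Nd2 was 0.31 in the low set and -0.76 in the high set of OHC, and 0.06 and -1.29 in those of IHC. mt-Nd3 and mt-Nd4l, inside the stretch, had 38.7 and 4.61 CPM in Exp OHC, 49.9 and 5.33 CPM in Ctrl OHC, 37.7 and 4.02 CPM in Exp IHC, and 61.4 and 6.39 CPM in Ctrl IHC. The ratio of mt-Nd3 was 0.30 in the low set and -0.83 in the high set of OHC, and 0.14 and -1.22 in those of IHC. That of mt-Nd4l was above 0 in both sets of OHC, at 0.07 and 0.33, although it was -0.21 over all OHC, and in IHC it was -0.65 in the low set and 0.13 in the high set.

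mt-Cytb, cytochrome b of complex III and the most abundant member in sum, had 11531 CPM in Exp OHC and 15635 CPM in Ctrl OHC (log2 ratio -0.44). In IHC mt-Cytb had 12882 CPM in Exp IHC and 20239 CPM in Ctrl IHC (-0.65). Cells overlapped widely, from 3550 to 22532 CPM in Exp OHC and from 6491 to 26331 CPM in Ctrl OHC. mt-Co1, the catalytic subunit of cytochrome c oxidase (complex IV), had 7480 CPM in Exp OHC and 9945 CPM in Ctrl OHC (-0.41), and 8215 CPM in Exp IHC and 12775 CPM in Ctrl IHC (-0.64). In the high set of OHC the ratios were close to 0, at -0.05 for mt-Cytb and -0.01 for mt-Co1, and among OHC with Xist they were 0.05 and 0.04.

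The remaining complex IV and V genes lie in the copied stretch. mt-Co2 and mt-Co3, the other core subunits of cytochrome c oxidase, had 118 and 259 CPM in Exp OHC, 158 and 356 CPM in Ctrl OHC, 110 and 244 CPM in Exp IHC, and 176 and 396 CPM in Ctrl IHC. mt-Atp6 and mt-Atp8, subunits of the membrane part of ATP synthase, had 188 and 12.1 CPM in Exp OHC, 268 and 21.6 CPM in Ctrl OHC, 193 and 12.8 CPM in Exp IHC, and 323 and 28.0 CPM in Ctrl IHC. These ratios depended on the cell set. In the high sets the log2 ratio was 1.86 for mt-Co2, 1.66 for mt-Atp8, 2.05 for mt-Atp6 and 2.25 for mt-Co3 in OHC, and 1.28, 1.23, 1.48 and 1.83 in IHC, all higher in the mutants. In the low sets it was -1.10, -1.15, -1.07 and -1.48 for the same genes in OHC, and in IHC it ran from -1.70 (mt-Co3) to -1.24 (mt-Atp6).

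**Figure D3:**
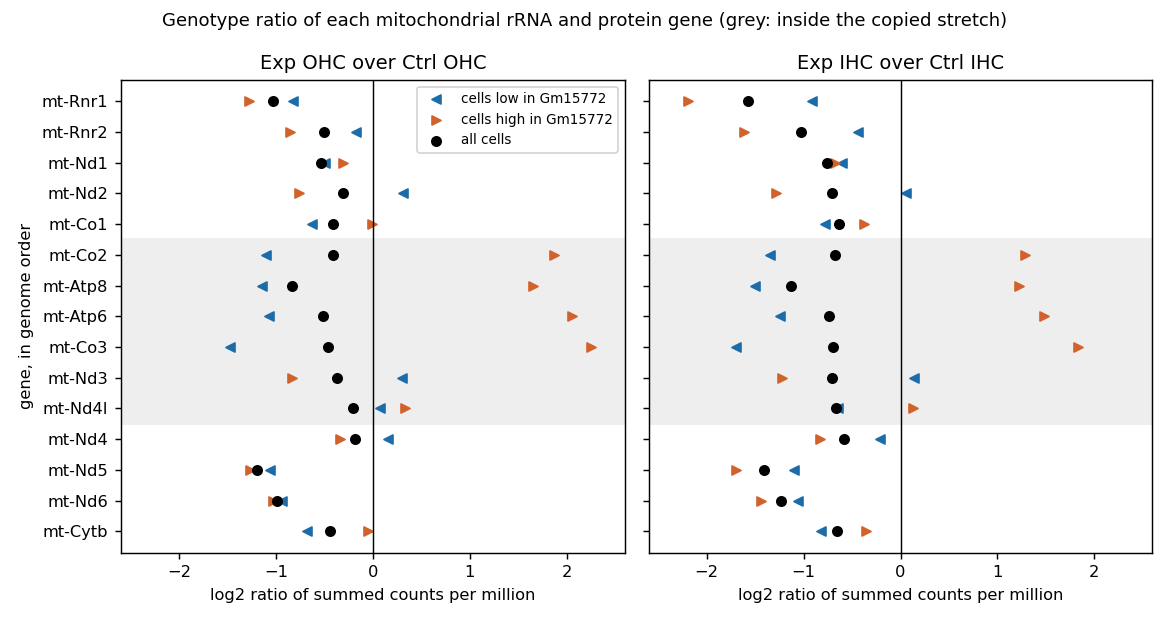
Log2 ratio of summed CPM (horizontal axis) of 15 mitochondrial genes in genome order (vertical axis), for Exp OHC over Ctrl OHC and Exp IHC over Ctrl IHC. Black circles are all cells and triangles the cells low or high in Gm15772. The ratios of mt-Co2, mt-Atp8, mt-Atp6 and mt-Co3 have opposite signs in the sets, and those of mt-Nd5 and mt-Nd6 lie between -0.93 and -1.70 in every set.

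For mt-Co3 the sets lay further apart in the control cells than in the mutants. mt-Co3 had 534 CPM in the low set and 61.0 CPM in the high set of Ctrl OHC, and 573 and 75.7 CPM in those of Ctrl IHC. In the mutants the order was the other way round and the sets were closer, with 192 CPM in the low set and 290 CPM in the high set of Exp OHC, and 176 and 269 CPM in those of Exp IHC. The copy Gm28437 moved with mt-Co3 in controls, at 1006 CPM in the low set and 368 CPM in the high set of Ctrl OHC, so the sum of both genes was also lower in the high set (1540 and 429 CPM). The share of mt-Co3 and Gm28437 counts that went to mt-Co3 differed as well, at 34.7% in the low set and 14.2% in the high set of Ctrl OHC, and 33.0% and 12.4% in those of Ctrl IHC. For mt-Nd2 and mt-Nd3 the sets lay further apart in Exp OHC than in Ctrl OHC. mt-Nd2 had 4214 CPM in the low set and 2256 CPM in the high set of Exp OHC, and 3396 and 3831 CPM in those of Ctrl OHC. mt-Nd3 had 60.8 CPM in the low set and 28.4 CPM in the high set of Exp OHC, and 49.5 and 50.7 CPM in those of Ctrl OHC. The sum of mt-Nd3 and its copy Gm28438 was 72.2 CPM in the low set and 49.4 CPM in the high set of Exp OHC, and 89.6 and 56.9 CPM in those of Ctrl OHC. The share of mt-Nd3 and Gm28438 counts that went to mt-Nd3 was 84.2% in the low set and 57.6% in the high set of Exp OHC, but 55.2% and 89.1% in those of Ctrl OHC. In IHC it was 91.3% in the low set and 58.4% in the high set of Exp IHC, and 56.2% and 85.0% in those of Ctrl IHC. Per cell, this share ran from 89.5% to 92.9% in the low set and from 26.3% to 75.8% in the high set of Exp IHC, and from 32.1% to 68.0% and from 72.1% to 96.4% in those of Ctrl OHC, without overlap. The sets overlapped in Exp OHC, at 68.0% to 93.0% in the low set and 33.4% to 74.0% in the high set, and in Ctrl IHC, at 44.4% to 71.1% and 62.8% to 93.7%. These cell sets were seen in the data and were not part of the design.

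**Figure D4:**
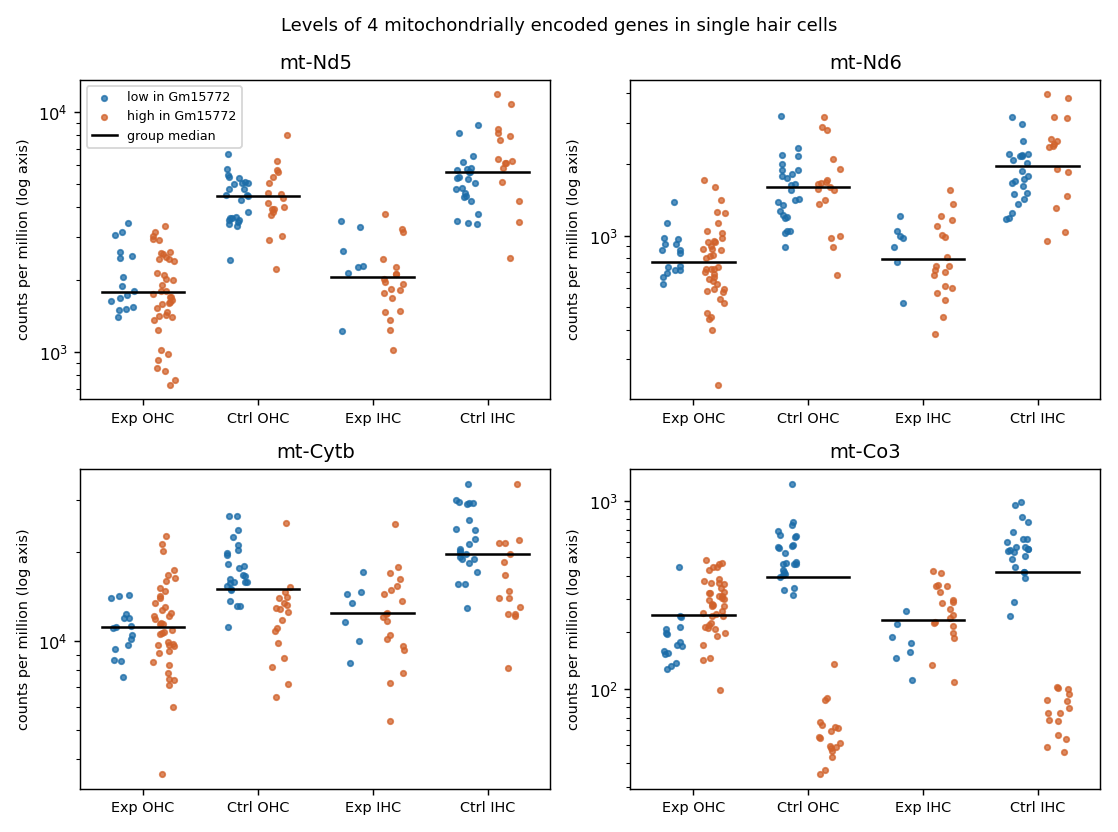
CPM per cell (vertical log axes) of mt-Nd5, mt-Nd6, mt-Cytb and mt-Co3 in the 4 groups (horizontal axes), coloured by Gm15772 set, with a line at the group median. For mt-Nd5, 38 of 56 Exp OHC lie below every Ctrl OHC and 20 of 26 Exp IHC below every Ctrl IHC, while mt-Co3 separates the low and high sets of the controls.

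A stricter description counted the genes that were lower in both mutant sets than in both control sets, a rule added after the data were seen. It held for 5 of 13 protein genes in OHC, where it held for 21.0% of all genes tested, namely mt-Nd1, mt-Co1, mt-Nd5, mt-Nd6 and mt-Cytb. For mt-Nd1, mt-Co1 and mt-Cytb it held by little. mt-Nd1 had 10066 CPM in the low set of Exp OHC and 10071 CPM in the high set of Ctrl OHC, mt-Co1 had 7548 CPM in the high set of Exp OHC and 7591 CPM in that of Ctrl OHC, and mt-Cytb had 11752 CPM in the high set of Exp OHC and 12153 CPM in that of Ctrl OHC. In IHC it held for 6 of 13, against 18.4% of all genes tested, with mt-Nd4 added to the same 5. None of these lies wholly inside the copied stretch. It also held for both rRNA genes in both cell types.

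Both rRNA genes were lower in the mutants. mt-Rnr1, the rRNA of the small mitochondrial ribosome subunit (chrM:70-1024), had 636 CPM in Exp OHC and 1297 CPM in Ctrl OHC (log2 ratio -1.03), and 562 CPM in Exp IHC and 1678 CPM in Ctrl IHC (-1.58, or 2.99-fold). All 26 Exp IHC and 53 of 56 Exp OHC lay below the median of their controls. mt-Rnr2, the rRNA of the large subunit (chrM:1094-2675), had 5289 CPM in Exp OHC and 7504 CPM in Ctrl OHC (-0.50), and 3960 CPM in Exp IHC and 8094 CPM in Ctrl IHC (-1.03). The log2 ratios in the high sets were -1.28 for mt-Rnr1 and -0.85 for mt-Rnr2 in OHC and -2.19 and -1.62 in IHC. In the low sets they were -0.82 and -0.17 in OHC and -0.91 and -0.44 in IHC. The rRNA share of mitochondrial counts differed between sets in controls, with 11.5% in the low set and 19.2% in the high set of Ctrl OHC, and 9.53% and 17.8% in those of Ctrl IHC. In mutants it hardly did, with 13.3% and 13.4% in Exp OHC and 10.5% and 9.58% in Exp IHC. Mitochondrial rRNAs carry only short A tails, so their level in libraries made from polyA RNA is not their cellular level.

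Most of the 22 tRNA genes were below 1 CPM, although mt-Tp was above mt-Nd3, mt-Atp8 and mt-Nd4l in Ctrl IHC. The libraries were made from polyA RNA, and how far they capture tRNAs was not tested. The 5 highest were mt-Tp, mt-Te, mt-Tn, mt-Tl1 and mt-Tc, and mt-Tf had 0 counts in every group, which allows up to 0.00416 CPM in Exp OHC, 0.00751 CPM in Ctrl OHC, 0.00822 CPM in Exp IHC and 0.00861 CPM in Ctrl IHC. Of the 7 tRNA genes at 1 CPM or more in OHC, 5 were lower and 2 higher in Exp OHC, and of the 8 in IHC, 7 were lower and 1 higher in Exp IHC. Of all genes at 1 CPM or more, 46.8% were lower in OHC and 44.1% in IHC. Over all levels, 8 tRNA genes were lower and 11 higher in OHC, and 16 were lower and 2 higher in IHC. The others had too few counts for a ratio. The share of all genes lower was not counted over all levels, so these last counts have no background beside them. mt-Tp, for proline, had 26.8 CPM in Exp OHC and 40.2 CPM in Ctrl OHC (log2 ratio -0.58), and 40.8 CPM in Exp IHC and 76.2 CPM in Ctrl IHC (-0.90). Its ratio was 0.07 in the low set and -0.83 in the high set of OHC, and -0.02 and -1.34 in those of IHC. mt-Te, for glutamate, lies directly beside mt-Nd6 on the same strand and had 9.09 CPM in Exp OHC and 15.6 CPM in Ctrl OHC (-0.78), and 10.9 CPM in Exp IHC and 22.6 CPM in Ctrl IHC (-1.05). mt-Te was lower in both sets of both cell types. mt-Tn, for asparagine, had 5.50 CPM in Exp OHC and 6.57 CPM in Ctrl OHC (-0.26), and 4.95 CPM in Exp IHC and 11.0 CPM in Ctrl IHC (-1.15). In OHC its ratio was 1.38 in the low set and -1.44 in the high set. mt-Tl1 and mt-Tc, for leucine and cysteine, had 2.66 and 1.25 CPM in Exp OHC, 3.05 and 1.53 CPM in Ctrl OHC, 2.87 and 1.30 CPM in Exp IHC, and 4.40 and 2.68 CPM in Ctrl IHC. In OHC the ratio of mt-Tc was 0.89 in the low set and -1.26 in the high set, and that of mt-Tl1 was 0.07 and -0.29, while in IHC both genes were lower in both sets.

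In controls, the mitochondrial share was lower in OHC than in IHC, with 6.26% of summed counts in Ctrl OHC and 7.87% in Ctrl IHC (log2 ratio -0.33). Per cell, 37 of 43 Ctrl OHC lay below the Ctrl IHC median. All 13 protein genes and both rRNA genes were lower in Ctrl OHC, where 47.9% of 14445 genes were lower, and their ratios ran from -0.43 (mt-Nd2) to -0.11 (mt-Rnr2). mt-Rnr2 was at 0.055 in the low set and -0.32 in the high set, kept its sign in 9 of 12 alternatives, and lay below the Ctrl IHC median in 20 of 43 Ctrl OHC. The other 14 genes were lower in both sets, and among cells in the range of totals shared by the groups 11 of the 13 protein genes were lower. None of these 15 was more than 1.5-fold lower, as 21.0% of all genes were. mt-Tp was lower by 0.92 on the log2 scale, and 5 of the 8 tRNA genes at 1 CPM or more were more than 1.5-fold lower. Both genotype comparisons and this one share the control cells, so their ratios are not independent.

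Across cells of a group, the mitochondrial genes outside the copied stretch varied together. Among the 7 protein and rRNA genes outside the stretch, the median Spearman correlation of the 21 gene pairs was 0.56 in Exp OHC, 0.55 in Ctrl OHC, 0.76 in Exp IHC and 0.69 in Ctrl IHC, over 56, 43, 26 and 38 cells that share library depth and preparation. Pairs of a gene outside and a gene inside the stretch were less closely related in controls, with medians over 28 pairs of 0.47 in Exp OHC, 0.25 in Ctrl OHC, 0.52 in Exp IHC and 0.13 in Ctrl IHC, and lowest values of -0.15 in Ctrl OHC and -0.32 in Ctrl IHC. The 6 pairs of genes that both lie inside had medians of 0.54 in Exp OHC, 0.66 in Ctrl OHC, 0.65 in Exp IHC and 0.68 in Ctrl IHC. Not every protein gene inside the stretch entered these pairs. Cells of both Gm15772 sets enter all these values. mt-Nd1 and mt-Cytb had correlations of 0.79 in Exp OHC, 0.93 in Ctrl OHC, 0.79 in Exp IHC and 0.87 in Ctrl IHC. mt-Nd5 and mt-Cytb were at 0.57 in Exp OHC, 0.55 in Ctrl OHC, 0.73 in Exp IHC and 0.36 in Ctrl IHC, and mt-Rnr2 and mt-Cytb at 0.56 in Exp OHC, 0.13 in Ctrl OHC, 0.73 in Exp IHC and 0.19 in Ctrl IHC. These values are descriptions with no test.

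The nuclear respiratory chain subunits had smaller median ratios than the mitochondrial protein genes, which were at -0.44 in OHC and -0.70 in IHC. Single nuclear genes of mitochondrial function had larger ratios than any mitochondrial protein gene. Of the 74 nuclear respiratory chain subunits at 1 CPM or more (of 79), 60 were lower and 14 higher in Exp OHC than in Ctrl OHC, with a median log2 ratio of -0.20, and 61 were lower and 13 higher in Exp IHC than in Ctrl IHC, with a median of -0.26. This is 81.1% lower in OHC and 82.4% in IHC, beside 46.8% and 44.1% of all genes. More than 1.5-fold lower were 8 of them in OHC and 4 in IHC, below the shares of all genes given above. Cox5a, a cytochrome c oxidase subunit, had 247 CPM in Exp OHC and 425 CPM in Ctrl OHC (-0.78), and Ndufb9, a complex I subunit, had 292 CPM in Exp IHC and 473 CPM in Ctrl IHC (-0.70). Cox4i2, an alternative subunit of cytochrome c oxidase, went the other way, with 57.1 CPM in Exp IHC and 7.08 CPM in Ctrl IHC (3.01). These genes kept their direction in both Gm15772 sets.

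The lists of the machinery of mitochondrial gene expression ran both ways, and their counts stand beside 46.8% of all genes lower in OHC and 44.1% in IHC. Of the 9 mitochondrial transcription genes, 3 were lower in Exp OHC (33.3%) and 4 in Exp IHC (44.4%). Tfam, which packages the mitochondrial genome and activates its transcription, had 34.2 CPM in Exp OHC and 30.1 CPM in Ctrl OHC (log2 ratio 0.18), and 33.4 CPM in Exp IHC and 25.8 CPM in Ctrl IHC (0.37). In IHC Tfam was at -0.04 in the low set and 1.62 in the high set of IHC. Of 13 replication genes, 9 were lower in Exp OHC (69.2%) and 5 in Exp IHC (38.5%), and Polg, the mitochondrial DNA polymerase, had 125 CPM in Exp IHC and 28.2 CPM in Ctrl IHC (2.14). Of 21 RNA processing and stability genes, 14 were lower in Exp OHC (66.7%) and 12 in Exp IHC (57.1%), and of 15 rRNA and tRNA modification genes 7 in Exp OHC (46.7%) and 6 in Exp IHC (40%). Of 77 mitochondrial ribosome genes, 35 were lower in Exp OHC (45.5%) and 48 in Exp IHC (62.3%), with median log2 ratios of 0.04 in OHC and -0.07 in IHC. Of 10 translation factors, 5 were lower in Exp OHC (50%) and 3 in Exp IHC (30%), and of 17 mitochondrial tRNA synthetases 10 in Exp OHC (58.8%) and 11 in Exp IHC (64.7%). Sars2, the seryl-tRNA synthetase, had 57.1 CPM in Exp OHC and 13.0 CPM in Ctrl OHC (2.13), and 89.1 CPM in Exp IHC and 21.6 CPM in Ctrl IHC (2.05). Of 10 regulators of biogenesis, 4 were lower in Exp OHC (40%) and 3 in Exp IHC (30%). Of 12 mitophagy and fission genes, 10 were lower in Exp OHC (83.3%) and 7 in Exp IHC (58.3%), among them Mff, a receptor for fission, with 258 CPM in Exp OHC and 453 CPM in Ctrl OHC (-0.81), and 229 CPM in Exp IHC and 476 CPM in Ctrl IHC (-1.05). Mff, Sars2 and, in IHC, Polg kept their direction in both sets.

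Among 5783 nuclear genes at 20 CPM or more in every group, the 8 whose share of nuclear counts followed the mitochondrial share most closely in all 4 groups were Cox7c, Ndufb1-ps, Cox7b, Pcp4, Usmg5, Ndufa1, Atp5j and Gm12338, with Spearman correlations across cells from 0.58 to 0.85. Cox7c and Cox7b encode cytochrome c oxidase subunits, Ndufa1 a complex I subunit, and Usmg5 and Atp5j ATP synthase subunits. The 8 that ran against it were Ptov1, Atp6v0a1, Atp13a2, Ormdl3, Ckb, Aplp1, Atf6b and Tmem255b, from -0.33 to -0.71. All of these genes were picked by the same correlations, over cells of both Gm15772 sets. Of the 5783 genes, 641 had a correlation above 0 in all 4 groups and 1092 had one below 0 in all 4. The longest annotated transcripts of the 8 that followed had a median of 785 bases and those of the 8 that ran against it 2702.5 bases, against 3251 bases for all 5783. Over all 5783 genes, transcript length and a gene's correlation with the mitochondrial share had a Spearman correlation of -0.0084 in Exp OHC, -0.10 in Ctrl OHC, -0.03 in Exp IHC and -0.15 in Ctrl IHC, a description with no test.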

How the data were processed

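Single hair cells were sequenced as full-length cDNA, and the deposited table gives 1 whole-number count of reads for each gene in each cell. HISAT2 2.2.1, SAMtools, featureCounts 2.0.1 and the build mm10 are named in the submitters' processing notes; the annotation release, the strand setting and what the authors did with shared reads are not given in the sources used here. Counts were summed over the cells of each group and divided by the group total (CPM). Each comparison used the log2 of the CPM ratio, with a 95% interval from the exact binomial (Clopper-Pearson) limits on the split of the counts. Genes entered it where the groups' mean was at least 1 CPM. The reads carry no molecular identifiers, so intervals and the floor of 3 counts cover counting error only. Genes were matched to GENCODE M21 (GRCm38) by identifier, with 55034 of 55291 matched (99.5%), and copies were found with BLAST+ 2.17.0 by alignment of mitochondrial transcripts to all annotated transcripts (85% identity or more over 50 bases or more). Nuclear DNA that is not annotated as a transcript was not searched. Sequences were read from the GENCODE transcripts. Other software was Python 3.11.15, pandas 2.3.3 and scipy 1.17.1, and, for size factors of the group sums, edgeR 4.0.16 and DESeq2 1.42.0 in R 4.3.3. The ratio and its interval were tested on simulated counts. All 13 protein and both rRNA genes and the 5 highest tRNA genes were to be named, with the extremes of each nuclear list from which examples were taken. Members, lists and cell sets were chosen with earlier results of these data known.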

Additional observations from a re-analysis of the deposited data

Results flagged for a closer look

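Of the tRNA genes, 9 had a ratio above 0 in OHC and below 0 in IHC, and for 2 of them the counting intervals lay wholly on opposite sides of 0. These differences were not tested. The 9 were counted without the limit of 1 CPM, and the share of all genes with such opposite signs was not counted. mt-Tq was below 1 CPM in every group. mt-Tq, for glutamine, had 0.748 CPM in Exp OHC and 0.450 CPM in Ctrl OHC (log2 ratio 0.73), but 0.491 CPM in Exp IHC and 0.844 CPM in Ctrl IHC (-0.78), a difference of 1.51. mt-Tt, for threonine, had 1.31 CPM in Exp OHC and 1.14 CPM in Ctrl OHC (0.20), but 1.43 CPM in Exp IHC and 2.56 CPM in Ctrl IHC (-0.84), a difference of 1.04. For both genes the direction differed between cell sets and, within a set, was the same in OHC and IHC. In the low Gm15772 set mt-Tq was at 1.71 in OHC and 0.18 in IHC and mt-Tt at 1.52 in OHC and 0.27 in IHC. In the high set mt-Tq was at -0.14 in OHC and -1.62 in IHC and mt-Tt at -0.95 in OHC and -1.80 in IHC.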

How the results depend on the processing

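No paired analysis was possible because the numbers in the labels count cells and each group is 1 sample. The log2 ratio of the mitochondrial share kept its sign under each of the 10 alternatives. In OHC it was -0.48 without the highest cell of each group, -0.42 in cells with Y-linked transcripts, -0.31 in cells with Xist, -0.47 and -0.38 in cells low and high in Gm15772, -0.53 in the range of totals shared by the groups, -0.54 without cells with supporting cell markers, -0.48 as a mean and -0.47 as a median over cells, and -0.55 for genes outside the stretch. In IHC the values in the same order were -0.80, -0.60, -0.90, -0.64, -0.81, -0.73, -0.75, -0.80, -0.66 and -0.84, and for Ctrl OHC over Ctrl IHC -0.33, -0.25, -0.61, -0.25, -0.47, -0.16, -0.26, -0.35, -0.32 and -0.32. The supporting cell, outside-stretch and both-set settings were chosen after seeing the data. The 13 lower protein genes became 9 (low Gm15772), 8 (high Gm15772), 6 (Xist) and 5 (both sets) in OHC, and 11, 8, 8 and 6 in IHC. Of these settings, only the both-set rule has a share of all genes beside it. Among gene ratios beyond 1.5-fold, the sign turned only in subsets of cells by Xist, Y-linked transcripts or Gm15772, and the cause was not tested. With Xist and in the high set, mt-Atp8 was at 1.70 and 1.66 in OHC, and in IHC mt-Co2 was at 1.37 and 1.28, mt-Atp8 at 1.16 and 1.23, mt-Atp6 at 1.43 and 1.48, mt-Co3 at 1.85 and 1.83, and mt-Nd4l at 0.16 and 0.13. With Y-linked transcripts and in the low set, mt-Nd2 in IHC was at 0.038 and 0.061 and mt-Nd3 at 0.16 and 0.14, and mt-Tp was at 0.052 with Y-linked transcripts. mt-Rnr1, mt-Rnr2, mt-Nd1, mt-Nd5, mt-Nd6 and mt-Te kept their sign in 12 of 12 alternatives in both cell types, mt-Nd5 between -1.34 and -1.06 in OHC and between -1.75 and -1.10 in IHC. These alternatives are not independent, since the mutant cells with Y-linked transcripts are the cells of the mutant low sets. Other size factors rescale all genes of a group alike. The rRNA share of mitochondrial counts as a mean over cells, with Y-linked transcripts, with Xist, and without genes that have a near-identical copy was 13.5%, 13.3%, 13.4% and 15.0% in Exp OHC, 14.6%, 12.6%, 19.4% and 15.5% in Ctrl OHC, 9.73%, 10.5%, 9.58% and 11.1% in Exp IHC, and 12.8%, 9.91%, 18.6% and 13.7% in Ctrl IHC. For the nuclear lists, too, the share of all genes lower was not counted in these settings, so the list counts that follow have no background. Among nuclear lists, the lower transcription genes in OHC were 5 (Y-linked), 5 (low set), 1 (high set) and 5 (shared totals), and in IHC 7 (Y-linked), 2 (Xist) and 8 (low set). Lower replication genes were 5 in OHC (median over cells), and in IHC 8 (Y-linked), 8 (low set) and 2 (members at 10 CPM or more). Lower modification genes were 4 in OHC (median over cells), lower translation factors in IHC 5 (low set), 5 (shared totals) and 6 (median), lower tRNA synthetases 6 in OHC (shared totals) and 7 in IHC (median), and lower biogenesis regulators in IHC 5 (low set), 6 (median) and 5 (no filter). Scaling by other size factors moved the median of all genes by at most 0.09 (log2). Low counts limit most tRNA genes, and unassignable reads limit the genes in the copied stretch.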
